A study of Rattus norvegicus with 9 samples.

Results

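miR-143 and miR-145 are microRNAs cut from 2 hairpins of 1 long primary transcript, and each hairpin gives a 5p and a 3p arm. The cluster was taken by name: the 4 rows rno-miR-143-3p, rno-miR-143-5p, rno-miR-145-5p and rno-miR-145-3p of 726 rows in the deposited small RNA table, all 4 of which passed the filter on low counts with 439 rows in all. They were measured in wild-type primary cultures of rat cartilage progenitor cells from condylar cartilage, in 3 groups of 3 libraries. P3 cells were cultured to passage 3 and serve as the control, P9 cells were cultured to passage 9 as a model of replicative senescence, and FFSS cells are passage 3 cells put under flow fluid shear stress as a degeneration model. The strength and length of the flow are not given in the labels. The comparisons ask what senescence by passage and degeneration by shear stress have in common. Nothing in the labels ties the replicates to separate animals or cultures, so the p-values rest on the spread of these 9 libraries, which may be technical.

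Mature microRNAs guide Argonaute to messenger RNAs that match the seed, bases 2 to 8, and usually only 1 arm of a hairpin is kept in quantity while its partner strand is degraded. The primary transcript of miR-143 and miR-145 is known from smooth muscle cells and fibroblasts, where serum response factor with myocardin, and TGF-beta signalling, raise it. There miR-143 restrains ELK1, and miR-145 restrains KLF4 and KLF5, in favour of a contractile state. In chondrocytes miR-145 is known to repress SOX9, the main transcription factor of cartilage, and in endothelial cells laminar flow is known to raise the cluster through KLF2.

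The 4 mature sequences are shown because every comparison of arms turns on them. They are printed 5′ to 3′ from RefSeq (rat build GRCr8), with the seed in capitals.
rno-miR-143-5p: gGUGCAGUgcugcaucucugg
rno-miR-143-3p: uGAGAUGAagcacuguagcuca
rno-miR-145-5p: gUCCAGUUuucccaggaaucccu
rno-miR-145-3p: gGAUUCCUggaaauacuguuc
The 4 seeds differ from each other, and no other of the 693 mature names in the RefSeq table shares the seed of any of them. No row of the deposited table had counts that matched those of a member in every library within 10% or 5 reads, so the members can be read individually.

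The hairpins are shown with both mature arms in capitals, since the 5p and 3p reads compared below are cut from the same molecule.
Mir143: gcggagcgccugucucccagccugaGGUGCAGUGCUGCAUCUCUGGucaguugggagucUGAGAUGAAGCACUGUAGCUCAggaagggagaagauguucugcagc
Mir145: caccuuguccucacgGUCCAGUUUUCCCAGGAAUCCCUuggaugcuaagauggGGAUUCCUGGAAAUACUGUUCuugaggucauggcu
In the RefSeq tables Mir143 lies at chr18:57371349-57371453 and Mir145 at chr18:57369983-57370070 of GRCr8, both on the minus strand, with 1278 bases between them and miR-143 upstream. Both lie inside the long non-coding RNA gene Carmn, also called Mir143hg, on its strand. Whether they are exonic or intronic there is not given in the tables used here. The authors' own build was Rnor_6.0, and none of its coordinates are used.

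The annotated start of Carmn lies 17659 bases upstream of Mir143. The sequence around it, 250 bases before to 50 after, is shown because both hairpins lie inside Carmn (chr18:57389063-57389362, minus strand, GRCr8). The capitals mark the matches to CACGTG (an E-box), CCAAT and TATAA, each searched on both strands.
Carmn: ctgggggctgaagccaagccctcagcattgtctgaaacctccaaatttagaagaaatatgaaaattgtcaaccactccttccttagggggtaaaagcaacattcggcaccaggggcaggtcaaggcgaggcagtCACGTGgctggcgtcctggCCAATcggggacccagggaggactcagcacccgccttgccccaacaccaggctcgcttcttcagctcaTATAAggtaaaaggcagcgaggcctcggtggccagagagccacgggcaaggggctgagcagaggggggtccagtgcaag
Each motif occurs 1 time, beginning 116, 97 and 29 bases before the annotated start, and none overlaps another. CACGTG was present in 6.42% of 33469 rat promoter windows of this length, CCAAT in 37.5% and TATAA in 26.2%. The CArG box, the binding motif of serum response factor, was searched only as CCWWWWWWGG, with W for A or T. It has 0 exact matches in these letters and is present in 1.64% of the windows. Looser forms of the motif and the rest of the locus were not searched. The small RNA data do not measure Carmn itself.

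Depth differed between libraries: P3 and P9 held 7522702 to 8862560 miRNA reads each, and FFSS replicates 1, 2 and 3 held 2878910, 7082142 and 3896403. The lowest count of any member was 523 reads (miR-143-5p in FFSS replicate 1; 95% exact Poisson interval 479 to 570), so counting error was small beside the spread between libraries for all members. P9 replicate 3 stands apart from the other P9 libraries, and results that rest on it are given with and without it. The labelled cell type was checked on the cartilage markers miR-140-5p, miR-140-3p, miR-455-5p and miR-455-3p, none of which was at 0 in any library. Their sum was 4150 to 7370 CPM (reads per 1000000 miRNA reads of the library) in P3, while the P9 libraries had 2590 to 3847 CPM and the FFSS libraries 6077 to 7202 CPM. The largest part of the sum was miR-140-3p, with a mean of 4810 CPM in P3. By member, 2, 2 and 4 of the 4 stood below every P3 library in P9 replicates 1, 2 and 3, and 0 above. In FFSS replicates 1, 2 and 3, 2, 1 and 1 stood below, with 1 above in replicates 1 and 3. EdgeR called 0 of the 4 against P3 in P9 and 0 in FFSS. In bulk cultures such as these, fewer cells of a type and less RNA per cell cannot be told apart.

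In all 9 libraries the arms had the same order by reads: miR-143-3p, then miR-145-5p, then miR-145-3p, then miR-143-5p. miR-143-3p was among the most abundant miRNAs of these cells, with rank 3 or 4 in the P3 libraries, 2 or 3 in P9 and 4 to 6 in FFSS. miR-145-5p ranked 22 to 25 in P3, 12 to 24 in P9 and 39 to 47 in FFSS. The 4 arms together took 6.92% ± 0.622 of the miRNA reads of P3 libraries, 16.9% ± 2.75 of P9 and 6.26% ± 1.66 of FFSS libraries (SD, n = 3).

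**Figure D1:**
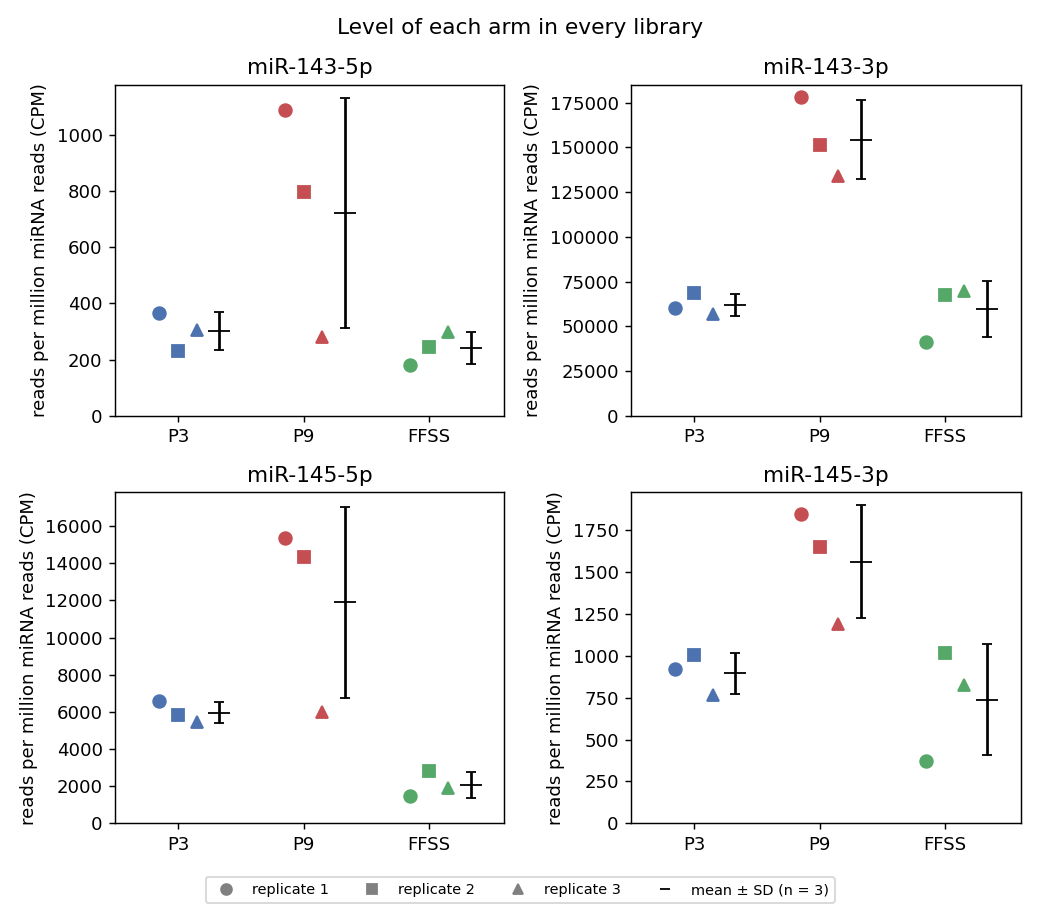
Level of each arm in every library, in CPM on a linear axis from 0, by group; the bar beside each group is the mean ± SD of 3 libraries. miR-143-3p stands higher in all P9 libraries, and miR-145-5p lower in all FFSS libraries, than in any P3 library.

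At passage 9 the guide arm of miR-143 rose. The other 3 arms had higher means than in P3 and did not pass the test with all 9 libraries. miR-143-3p stood at 60461, 68796 and 56979 CPM in P3 replicates 1, 2 and 3, and at 178130, 151322 and 133849 CPM in the P9 libraries. All P9 libraries lay above all P3 libraries, by 2.56-fold in the fit (log2 fold change 1.35, SE 0.24, edgeR adjusted p = 0.00348). Of the 439 rows, 7.29% were called in this comparison, and 1 of the 4 arms was. The call held in 12 alternative settings and whichever of the 9 libraries was left out, with an adjusted p of at most 0.0365.

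miR-145-5p, the guide arm of the other hairpin, gave 6598, 5815 and 5462 CPM in P3 and 15343, 14346 and 5999 CPM in P9. P9 replicates 1 and 2 were therefore far above P3, and P9 replicate 3 lay within the P3 range. The value was 1.04 on the log2 scale (SE 0.33, adjusted p = 0.0788), short of the threshold. Without P9 replicate 3 it was 1.33 with an adjusted p of 0.00308. In the other 8 fits that left out 1 library it did not pass, with an adjusted p of up to 0.296 without P3 replicate 1.

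The partner strand miR-143-5p showed the same division, with 367, 231 and 307 CPM in P3 against 1088, 794 and 279 CPM in P9 (log2 fold change 1.29, SE 0.38, adjusted p = 0.0639). Without P9 replicate 3 the value was 1.66 (adjusted p = 6.08e-04), and without FFSS replicate 1 it was 1.30 (adjusted p = 0.0496). The other 7 fits that left out 1 library did not pass, with an adjusted p of up to 0.249 without P9 replicate 1 (0.95). miR-145-3p, the partner strand of miR-145-5p, had 919, 1005 and 764 CPM in P3 and 1847, 1651 and 1191 CPM in P9. Here the groups did not overlap, yet the value of 0.84 did not pass (SE 0.33, adjusted p = 0.186). It passed without FFSS replicate 1 (0.86, adjusted p = 0.0494). It did not pass in the other 8 such fits, with an adjusted p of up to 0.535 without P3 replicate 1.

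The number of arms called for passage 9 rested on single libraries: 1 of 4 with all 9 libraries, and 3 of 4 without P9 replicate 3 or without FFSS replicate 1. It was 1 of 4 in the other 7 fits that left out 1 library. P3 and P9 did not overlap for 2 of the 4 arms, miR-143-3p and miR-145-3p, and for 25.3% of all tested rows. The median log2 fold change was 1.16 over the 4 arms and 0.06 over all 439 rows.

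P9 replicate 3 differed from the other P9 libraries unequally across the arms. Against the mean of P9 replicates 1 and 2, its CPM was 0.813 times as high for miR-143-3p, 0.681 times for miR-145-3p, 0.404 times for miR-145-5p and 0.297 times for miR-143-5p. Both 5p arms therefore stood lowest there, and both 3p arms kept more of their level. Markers of other cell types also moved in this library. The 5 striated muscle markers summed to 534 CPM, against 141 to 158 CPM in P3 and 151 to 167 CPM in the other P9 libraries. Of these markers 4 of 5 lay above and 1 below every P3 library, and none was at 0. The 6 blood markers summed to 307 CPM, with 3 of 6 above and 2 below every P3 library, and miR-144-3p and miR-223-3p at 0. P3 had 75.7 to 156 CPM of them, with miR-144-3p at 0 in all 3 libraries, and P9 replicates 1 and 2 had 69.5 and 301 CPM. The 4 nervous system markers summed to 1547 CPM (537 to 1170 CPM in P3), with 3 of 4 above and 1 below every P3 library and none at 0. The 2 endothelial markers summed to 490.5 CPM (386 to 406 CPM in P3), with 1 above and 1 below every P3 library. The liver miRNA miR-122-5p had 22.9 CPM (9.87 to 11.7 CPM in P3). The 6 epithelial markers went the other way, at 17.2 CPM (28.3 to 29.6 CPM in P3), with miR-141-3p, miR-429 and miR-205 at 0. Among them 4 of 6 lay below and 1 above every P3 library. All 4 cartilage markers lay below every P3 library. Of 17 miRNAs of fibroblasts and smooth muscle, 7 lay above and 9 below every P3 library. The part of these markers in the values of P9 replicate 3 was not tested.

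**Figure D2:**
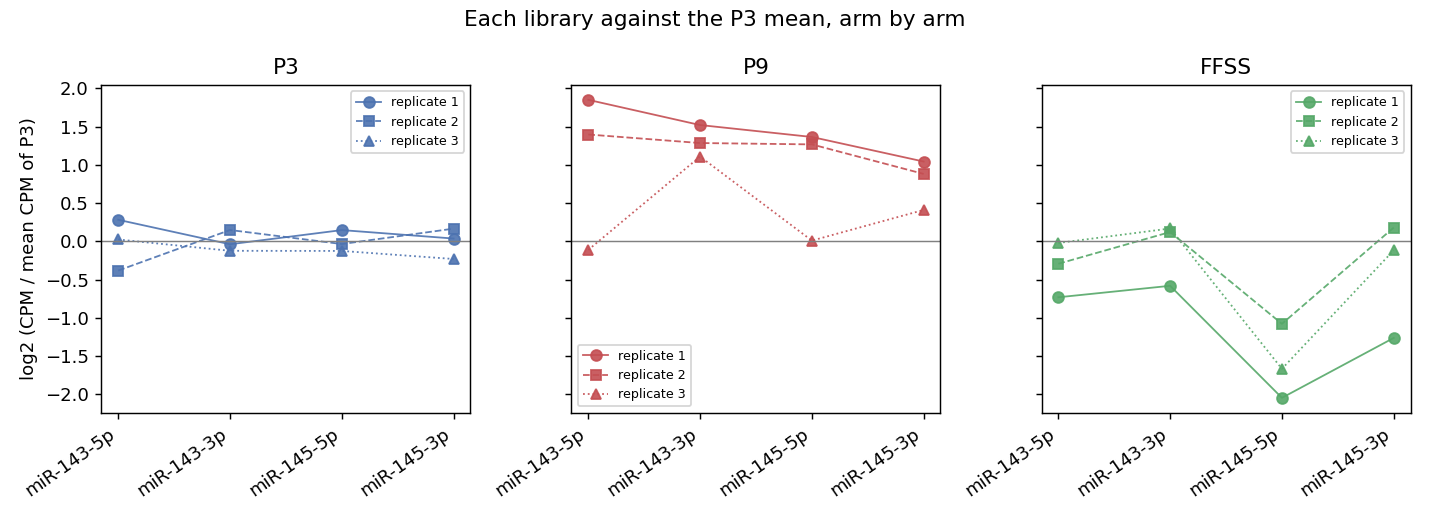
CPM of each arm in every library divided by the mean CPM of P3, on a log2 axis, with 1 line per library. P9 replicates 1 and 2 lie above 0 for all 4 arms while P9 replicate 3 is near 0 for both 5p arms, and each FFSS library has its lowest point at miR-145-5p.

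Under shear stress miR-145-5p fell and the other 3 arms did not pass the test. miR-145-5p stood at 1443, 2821 and 1876 CPM in FFSS replicates 1, 2 and 3, against 5462 to 6598 CPM in P3. Every FFSS library lay below every P3 library, by 2.98-fold in the fit (log2 fold change -1.57, SE 0.34, edgeR adjusted p = 0.00944). In this comparison 20.5% of all rows were called, and 1 of the 4 arms. It was kept in the 12 alternative settings and whichever library was left out, at an adjusted p of up to 0.0424. The groups did not overlap for 1 of the 4 arms and for 41.5% of all rows.

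The same hairpin's miR-145-3p had 373, 1015 and 826 CPM in FFSS, and only replicate 1 lay below the P3 range of 764 to 1005 CPM, with a value of -0.34 (SE 0.33, adjusted p = 0.457). miR-143-3p had 41488, 67545 and 69750 CPM in FFSS (-0.13, SE 0.24, adjusted p = 0.727). Its partner miR-143-5p had 182, 246 and 297 CPM (-0.36, SE 0.38, adjusted p = 0.497). For all 3 of these arms the FFSS libraries overlapped with P3. FFSS replicate 1, the shallowest library, was the lowest of the 9 libraries for every arm. The median over the 4 arms was -0.35, against 0.02 over all rows.

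Marker sums of several other cell types were higher in FFSS too. The 6 blood markers summed to 592, 167 and 390 CPM in FFSS replicates 1, 2 and 3, above the P3 range of 75.7 to 156 CPM, with miR-223-3p at 0 in replicates 1 and 2. The 5 striated muscle markers summed to 189 to 538 CPM (141 to 158 CPM in P3), and the 2 endothelial markers to 556 to 695 CPM (386 to 406 CPM in P3), with none at 0. The 6 epithelial markers summed to 32.3 to 82.7 CPM (28.3 to 29.6 CPM in P3), also with none at 0. The liver miRNA miR-122-5p had 15.5 to 51.4 CPM (9.87 to 11.7 CPM in P3). The sum of the 4 nervous system markers overlapped with P3, at 565, 874 and 1376 CPM in FFSS replicates 1, 2 and 3 against 537 to 1170 CPM. Only replicate 3 lay above that range. By member, 2, 3 and 3 of the 4 stood above every P3 library, and 2 stood below in replicate 1. Of the 6 blood markers, 5, 4 and 5 stood above every P3 library in FFSS replicates 1, 2 and 3, with 1 below in replicates 1 and 2. For striated muscle 4, 2 and 5 of 5 stood above, with 1 below in replicate 1. For epithelium 5, 2 and 6 of 6 stood above, with 1 below in replicate 2. For endothelium 2, 1 and 1 of 2 stood above. EdgeR called 1 of 4 blood, 1 of 5 epithelial and 1 of 3 nervous system markers tested. It called 0 of 4 striated muscle, 0 of 2 endothelial and 0 of 1 liver markers, and 20.5% of all rows. FFSS replicate 2 had the smallest blood and muscle sums of the FFSS libraries. Its miR-145-5p was 0.474 times the P3 mean, against 0.242 and 0.315 times in replicates 1 and 3. Depth gave the same order as miR-145-5p, with 7082142 reads in replicate 2 against 2878910 and 3896403 in replicates 1 and 3. The part of these markers, or of depth, in the fall of miR-145-5p was not tested.

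Between the treated groups all 4 arms were higher in P9 than in FFSS, in a comparison where 34.4% of all rows were called. miR-145-5p differed by 6.11-fold (log2 fold change 2.61, SE 0.35, edgeR adjusted p = 4.53e-04) and ranked 17 of 439 rows from the highest value. miR-143-5p differed by 1.65 (SE 0.39, adjusted p = 0.00583), miR-143-3p by 1.48 (SE 0.24, adjusted p = 7.24e-04) and miR-145-3p by 1.19 on the log2 scale (SE 0.33, adjusted p = 0.0159). The last call was lost without FFSS replicate 3 (adjusted p = 0.0531). P9 and FFSS did not overlap for 3 of the 4 arms, with miR-143-5p the exception, and for 42.8% of all rows. This comparison shares its libraries with those against P3, so its values are not independent of them.

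**Figure D3:**
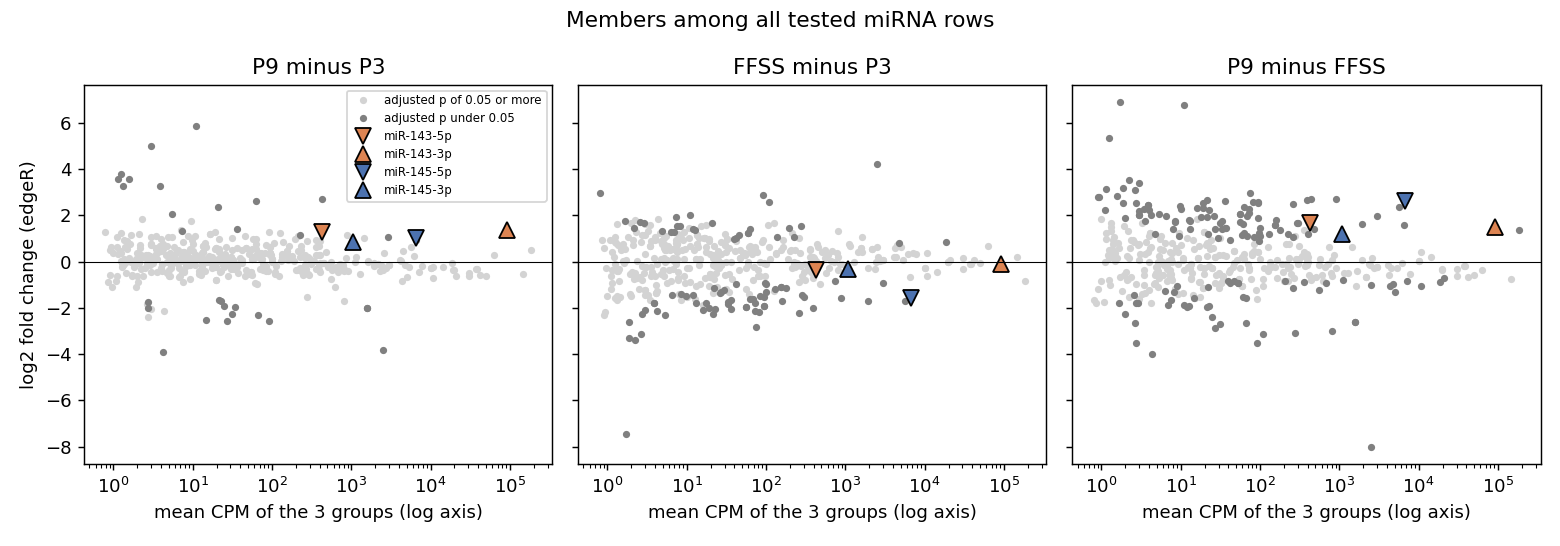
Log2 fold change from edgeR against mean CPM (log axis) for all 439 tested miRNA rows in the 3 comparisons, with the 4 arms as triangles and rows at an adjusted p under 0.05 in dark gray. All 4 arms lie above 0 in P9 minus P3, where only miR-143-3p passed, and miR-145-5p lies lowest of the 4 in FFSS minus P3.

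Both hairpins lie inside Carmn on its strand, and the ratio of their reads within a library does not depend on scaling between libraries. Whether each transcript carries both was not tested. With both arms added, there were 8.09, 10.1 and 9.20 miR-143 reads per miR-145 read in P3 replicates 1, 2 and 3. P9 had 10.4, 9.51 and 18.7, and FFSS had 22.9, 17.7 and 25.9. All FFSS libraries stood above all P3 libraries. P9 replicate 3 lay in the FFSS range, and the other P9 libraries lay within the P3 range or just above it.

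Over the 3 groups the log2 ratio differed with an exact permutation p of 0.0286 (F test statistic, 9 libraries; the smallest p this design allows is 0.00357). The mean log2 ratio was 3.19 ± 0.16 in P3, 3.62 ± 0.53 in P9 and 4.45 ± 0.28 in FFSS (SD, n = 3). FFSS was 1.27 above P3, a 2.41-fold higher ratio (exact two-sided permutation p = 0.1, the smallest that 3 against 3 libraries can give). P9 was 0.43 above P3 (exact permutation p = 0.2), a value that rested on P9 replicate 3: it was 0.13 without that library, and 0.62 without P9 replicate 2. P9 was below FFSS by a log2 difference of -0.84 (exact permutation p = 0.2). The p over the 3 groups was at most 0.0714 when 1 library was left out, and it missed 0.05 without P3 replicate 1 or 3 or FFSS replicate 1 or 3, at 0.0714, 0.0536, 0.0643 and 0.0607.

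The size of the FFSS difference varied with the arms counted. Between the guide arms, miR-143-3p over miR-145-5p, the ratio was 2.83-fold higher in FFSS than in P3, with an exact permutation p of 0.0143 over the 3 groups. Between the partner strands, miR-143-5p over miR-145-3p, the log2 difference was 0.07, and the p over the 3 groups was 0.786. With miR-143-3p over miR-145-3p it was 0.30 (0.121 over the 3 groups), and with miR-143-5p over miR-145-5p it was 1.27 (0.0214). Of these 4 pairings, the 2 that contain miR-145-5p passed over the 3 groups, and whether they differ from the others was not tested.

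**Figure D4:**
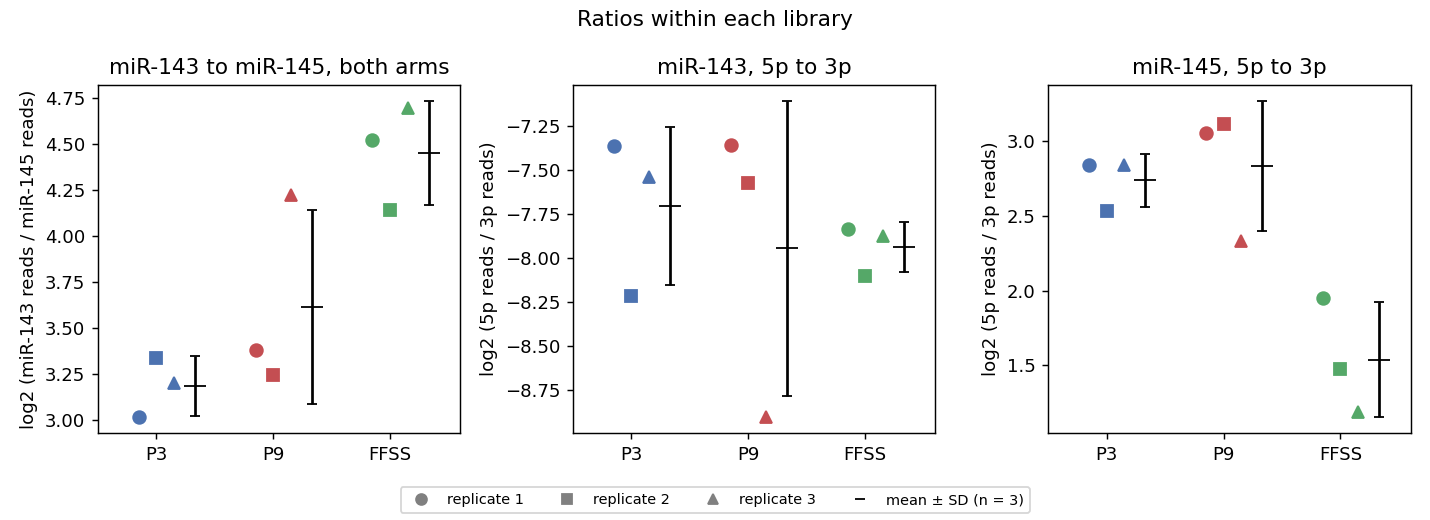
Log2 ratios within each library: miR-143 reads over miR-145 reads, and 5p over 3p reads of each hairpin, by group, with mean ± SD of 3 libraries. FFSS libraries have the highest ratios of miR-143 to miR-145 apart from P9 replicate 3, which lies among them, and the lowest 5p to 3p ratios of miR-145.

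The arms of a single hairpin can be compared in the same way. In P3 replicates 1, 2 and 3 there were 7.18, 5.78 and 7.15 miR-145-5p reads per miR-145-3p read, and in P9 8.31, 8.69 and 5.04. In FFSS there were 3.86, 2.78 and 2.27, so every FFSS library was below every other library. Over the 3 groups the exact permutation p was 0.0214.

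With limma over 89 hairpins with reads on each arm, the miR-145 ratio was lower in FFSS than in P3 by a log2 difference of -1.20 (SE 0.36, adjusted p = 0.0710), which missed the threshold. In that comparison 4.49% of the arm ratios were called, and miR-145 ranked 15 of 89 by absolute difference. The median difference over the 89 hairpins was -0.25. The miR-145 ratio passed without P9 replicate 3 (adjusted p = 0.0151) or without FFSS replicate 1 (-1.41, adjusted p = 0.0466). It did not pass in the other 7 fits that left out 1 library, with an adjusted p of up to 0.218 without P3 replicate 3. P9 was 1.30 above FFSS (SE 0.36, adjusted p = 0.0496), where 7.87% were called. That call was lost in 8 of the 9 fits that left out 1 library, with an adjusted p of up to 0.183 without P9 replicate 2, and was kept without P9 replicate 3. The P9 and P3 ratios differed by 0.10 (SE 0.36, adjusted p = 0.989). For P9 against P3 limma called 0 of 89 arm ratios, or 0%, with 2 at an unadjusted p under 0.05.

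The arms of miR-143 were far more unequal and their ratio did not follow the groups. P3 replicates 1, 2 and 3 gave 165, 297 and 186 miR-143-3p reads per miR-143-5p read. The P9 libraries gave 164, 190 and 480, and the FFSS libraries 228, 274 and 235. P9 replicate 3 was the highest of the 9 libraries, and the other P9 libraries lay within or just below the P3 range. The log2 ratio of 5p to 3p differed by -0.24 between P9 and P3 (limma adjusted p = 0.989) and by -0.23 between FFSS and P3 (0.735). The difference from P3 at passage 9 turned to 0.24 without P9 replicate 3. Over the 3 groups the exact permutation p was 0.879.

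Other clusters that give several hairpins from a shared transcript put the miR-143 to miR-145 ratio in context. Of 51 neighbouring pairs listed, 41 had enough reads. Reads were added by hairpin name. The pairs with miR-24-1 and miR-30c-1 therefore leave out rows named without the locus number, such as miR-24-3p. Names without a locus number may pool reads of several loci. Not every pair thus compares whole hairpins of a shared transcript, and the ranks and medians carry this limit. In FFSS against P3 the miR-143 to miR-145 pair ranked 4 of 41 by absolute change, 1.27 with a limma adjusted p of 0.0600 over the 41 pairs, against a median absolute change of 0.55. Limma called 0 of 41 pairs there, or 0%, with 15 at an unadjusted p under 0.05. The miR-143 to miR-145 pair passed without P9 replicate 3 (adjusted p = 0.00933), FFSS replicate 1 (0.0459) or FFSS replicate 2 (0.0287). It did not pass in the other 6 fits that left out 1 library, with an adjusted p of up to 0.161 without P3 replicate 1.

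In P9 against P3 the pair ranked 6 of 41, at 0.43 (adjusted p = 0.982), beside a median absolute change of 0.20, and limma called 0 of 41, with 2 at an unadjusted p under 0.05. Without P9 replicate 3 the pair was at 0.13 (adjusted p = 0.861). In P9 against FFSS it ranked 9 of 41, at -0.84 (adjusted p = 0.106), and 7.32% of the pairs were called. Without P9 replicate 3 it was -1.14 and passed (adjusted p = 0.0105). In the other 8 fits that left out 1 library it did not pass, with an adjusted p of up to 0.402 without P9 replicate 2. The called pairs were miR-132 to miR-212 (-1.0, adjusted p = 0.0407), and miR-532 to miR-362 and miR-532 to miR-500 of the X-linked Clcn5 gene (-1.16 and 1.48, both with an adjusted p of 0.0333).

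**Figure D5:**
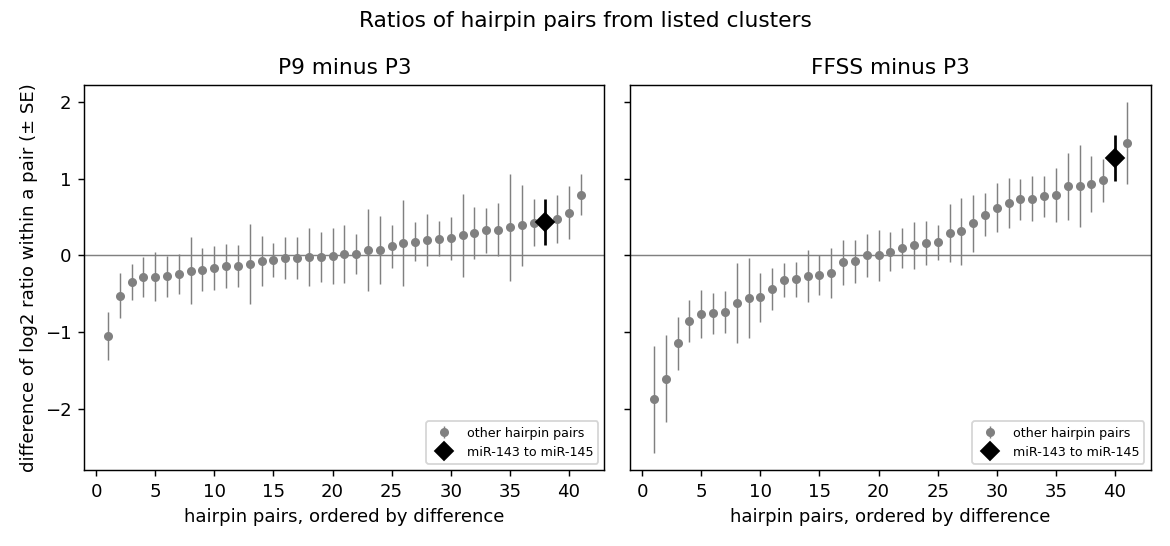
Difference of the log2 ratio of reads within each of 41 hairpin pairs (points, ± SE from limma), ordered by size, for P9 minus P3 and FFSS minus P3, with the miR-143 to miR-145 pair as a black diamond. The pair lies near the upper end in FFSS minus P3 at 1.27 and within the range of the other pairs in both panels.

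Across the 9 libraries, the miRNAs whose log2 CPM was most like that of miR-143-3p, among 180 compared, were miR-34c-5p (Pearson r = 0.976), which is transcribed under p53, miR-212-5p (0.915), miR-146b-5p (0.910), miR-221-3p (0.910) and miR-145-3p (0.906). The arms miR-143-5p (0.813) and miR-145-5p (0.789) had ranks 7 and 8. For miR-145-5p they were miR-221-3p (0.952), miR-450a-5p (0.946), miR-450b-5p (0.925), and miR-382-3p and miR-3592 (0.916 and 0.915). Its own partner miR-145-3p came at rank 16 (0.855), miR-143-5p at rank 21 (0.833) and miR-143-3p at rank 31 (0.789). Whether the rows miR-382-3p and miR-3592 share reads was not tested. These correlations describe 9 libraries that share 3 conditions, and the median over the 180 was -0.14 for miR-143-3p and -0.12 for miR-145-5p.

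Other miRNAs of fibroblasts and smooth muscle were compared as a list of 17, of which 16 were tested. The list shares miR-1-3p and miR-133a-3p with the striated muscle markers above. In P9, 2 of the 16 rose, miR-221-3p and miR-222-3p, and 0 fell, where 7.29% of all rows were called (median log2 fold change 0.09, against 0.06 over all rows). In FFSS miR-24-3p rose, while miR-222-3p and miR-10b-5p fell (median 0.11, against 0.02 over all rows). These 3 of 16 are near the 20.5% called over all rows. miR-222-3p, which represses the cell cycle inhibitor p27, had 2507 ± 362 CPM in P3, 4957 ± 844 CPM in P9 and 1367 ± 263 CPM in FFSS (SD, n = 3; 1.07 and -0.92 against P3, adjusted p = 0.0134 and 0.0232). Its cluster partner miR-221-3p had 5679 ± 844 CPM in P3, 10400 ± 2470 CPM in P9 and 3684 ± 1010 CPM in FFSS (0.93 and -0.66, adjusted p = 0.0364 and 0.0688).

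miR-10b-5p, encoded in a Hox cluster, stood at 775 ± 385 CPM in P3 and fell by 1.57 on the log2 scale in FFSS, to 266 ± 155 CPM (adjusted p = 0.0441). Its P9 mean was 1643 ± 482 CPM (1.14, adjusted p = 0.251). miR-24-3p had 14933 ± 1875 CPM in P3 and rose to 27676 ± 7873 CPM in FFSS (0.84, adjusted p = 0.0459). miR-26a-5p in P9 (-0.63, adjusted p = 0.0954) and miR-21-5p, the most abundant fibroblast miRNA of the list, in FFSS (-0.85, adjusted p = 0.0730) did not pass.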

How the data were processed

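Small RNA of cultured rat cartilage progenitor cells was sequenced in 9 libraries, 3 per group. The deposited table holds, per the file headers, a read count and a TPM value for 726 miRNA rows per library. The deposited TPM equals the count scaled to a library total of 1000000 (largest difference 4.85e-05), with no length term, and is called CPM here. The submitters' processing notes name Bowtie and the build Rnor_6.0. Which program counted reads, and on which annotation, was not given in the sources used here.

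Deposited counts went into edgeR 4.0.16 (filterByExpr, 439 rows, 0.00685% of reads removed, TMM, robust quasi-likelihood test, 9 libraries in 1 model, Benjamini-Hochberg over 439 rows, called under 0.05). Arm ratios (each arm with 20 or more counts on average) and hairpin pair ratios (20 counts each, arms summed by hairpin name) used limma 3.58.1 on log2 ratios with 0.5 added. The miR-143 to miR-145 ratio used exact permutation tests. The scripts were tested on simulated data. DESeq2 1.42.0 was an alternative. Named are all members, the 5 miRNAs most alike to each guide arm by Pearson r of log2(CPM + 1) among rows with a mean of at least 50 CPM, up to 6 fibroblast and smooth muscle miRNAs with the smallest p, and up to 3 called cluster pairs. Members and lists were chosen with earlier results of these data known. RefSeq held sequences for 578 of 726 rows and for all 4 members.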

Additional observations from a re-analysis of the deposited data

How the results depend on the processing

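The call of miR-143-3p in P9 and that of miR-145-5p in FFSS kept their direction and side of the threshold in 12 alternatives of scaling, filter, test, pseudocount and replicate block and in the 9 fits without 1 library each. For P9 against P3, miR-145-5p passed with no filter on low counts (1.04, adjusted p = 0.0382). It passed in none of the other 11 alternatives, with an adjusted p of up to 0.217. It ranged from 0.85 to 1.33 without 1 library. The number of arms called was 3 with no filter, 2 with DESeq2 and 1 to 3 without 1 library. The arm ratio of miR-145 in FFSS against P3 passed with 5 added (-1.20, adjusted p = 0.0483). It also passed with at least 100 counts per arm (-1.20, 0.0427) and with only the groups compared (-1.20, 0.0274). With the replicate block it did not pass (-1.20, 0.131). It ranged from -1.41 to -1.03 without 1 library. In P9 against FFSS it lost its call with only the groups compared (1.30, adjusted p = 0.144) and with the replicate block (1.30, 0.104), and ranged from 1.12 to 1.55. Arm ratios without a call changed sign when 1 library was left out: miR-143 and miR-145 in P9 against P3 ranged from -0.53 to 0.24 and from -0.045 to 0.35, and miR-143 in P9 against FFSS from -0.30 to 0.47. The miR-143 to miR-145 pair in FFSS against P3 passed with at least 100 counts per hairpin (1.27, adjusted p = 0.0430). It did not pass with the replicate block (1.27, 0.0732). Without 1 library it ranged from 1.15 to 1.42, and in P9 against FFSS from -1.14 to -0.65. The log2 ratio of reads in FFSS against P3 was 1.5 for the guide arms and 0.067 for the partner strands, and for these it was 0.22 in P9 against FFSS. The exact p over 3 groups was 0.786 for the partner strands, 0.0556 with the replicate block and 0.0143 to 0.0714 without 1 library. Nothing in the labels says that the replicate numbers pair the libraries. Same-numbered P9 and P3 libraries had correlations of deviations from the group mean of 0.131, -0.320 and -0.503. For FFSS and P3 they were -0.118, 0.107 and -0.215, and for P9 and FFSS -0.110, 0.102 and 0.0858. With 3 libraries a group, these values cannot decide whether the libraries are paired. Beyond the settings whose construction changes the data tested, the cause of these changes was not tested. The depth of FFSS replicate 1, 2878910 reads, is the lowest, and the smallest count of a member there was 523.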
